A study of Homo sapiens with 12 samples.

Results

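The comparison set MDA-MB-231 cells given minus2, a mimic of an isomiR of miR-183-5p, against the same cells given the archetype mimic, which has the reference ends of this microRNA. It used 3 minus2 arrays and 3 archetype arrays of a series of 12, and it covered 14940 of the 22411 genes with 1 symbol on the array. These are the genes whose mean log2 signal over the 12 arrays was above 4.54, each represented by the transcript cluster with the highest mean. MDA-MB-231 is a long-established human breast cancer line of the triple-negative kind, which lacks the oestrogen and progesterone receptors and amplified HER2.

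The minus2 cells received a customised mimic whose ends both lie 2 nt upstream of the reference. The archetype cells received a stock mimic of miR-183-5p, and the control cells a negative control oligonucleotide. Cells of the remaining group, plus2, with both ends moved 2 nt downstream, entered the estimate of the spread and the means over 12 arrays by which clusters and genes were chosen, and no difference given here is drawn from it. Every group was transfected with its oligonucleotide at 50 nM by a lipid reagent for 48 h, and labelled cDNA was made from 100 ng of total RNA per array. The comparison therefore concerns 1 cell line and mimics supplied from outside, and the mature microRNAs were not measured. The labels number the 3 arrays of a group without saying whether they came from separate cultures, and the p-values reflect no more than the spread among these arrays, some or all of which may be technical.

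A microRNA guides Argonaute to messenger RNAs that pair with its seed, the bases from position 2 to position 8, and the paired transcripts are repressed or degraded. An isomiR is a form of the same microRNA with other ends, and a shift at the 5′ end moves the seed along the sequence. The miR-183 family is known from sensory organs, where it is abundant, and from studies of its altered levels in carcinomas including those of the breast.

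The sequences are shown because the mimics differ in where the seed starts. They also differ at the 3′ end, and a customised mimic was set against a stock one. These differences come together in the comparison and cannot be told apart. Capitals mark the seed. The labels print the minus2 sequence in DNA letters, written here as RNA, and name the archetype without a sequence, so its mature sequence was taken from RefSeq (GRCh38.p14, chr7:129774967-129774988, minus strand).
minus2: uGUAUGGCacugguagaauuca
archetype: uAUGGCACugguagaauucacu
Both are 22 bases long and share 20 bases in 1 run. Their seeds share 5 bases, so that a perfect site for the minus2 seed reads GCCAUAC in a messenger RNA and a perfect site for the archetype seed reads GUGCCAU.

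Between the mimics, 3629 of 14940 genes (24.3%) differed past an adjusted p of 0.05 (limma with Benjamini-Hochberg adjustment, the test behind every adjusted p given here), and these are said to be called. Of them, 1859 were higher with minus2 (12.4% of the genes tested) and 1770 were lower (11.8%). Most differences were small. The median absolute difference of the called genes was 0.29 on the log2 scale, and 3202 of them differed less than 1.5-fold, which is 0.58 log2 units. At least 1.5-fold, 178 genes were higher with minus2 (1.19%) and 249 were lower (1.67%). At least 2-fold, 32 were higher and 47 lower. For 13837 genes (92.6%) the 95% confidence interval of the difference lay within 1.5-fold in either direction. RNA was measured in bulk, so less of a transcript per cell and fewer cells holding it cannot be told apart.

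**Figure D1:**
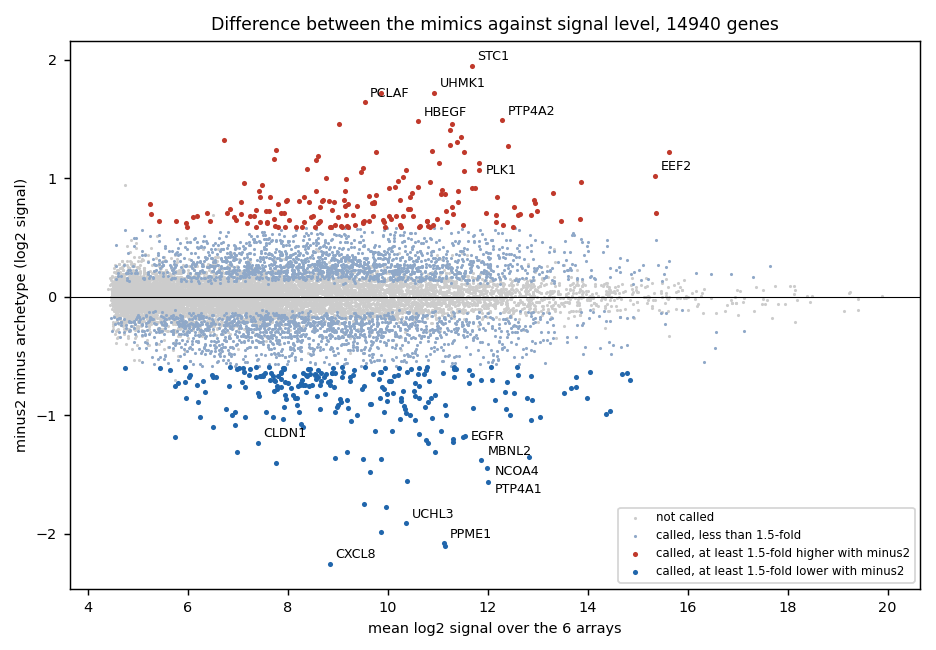
Difference between minus2 and archetype arrays (y axis, log2 signal, minus2 minus archetype) against the mean signal of the 6 arrays (x axis, log2) for 14940 genes. Red points are the 178 genes called at least 1.5-fold higher with minus2, dark blue points the 249 called at least 1.5-fold lower, light blue points smaller called differences and grey points genes not called. STC1 is highest at 1.95 and CXCL8 lowest at -2.25.

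Arrays of a group agreed closely. Pearson's r between them, across genes that are not independent replicates, was 0.997 to 0.999, and the median SD between arrays was 0.0576 log2 units for minus2 and 0.0607 for the archetype. Some markers of the line are given here, of which ESR1, PGR, VIM and CD44 were named after their values were seen. The oestrogen and progesterone receptor genes ESR1 (4.12 to 4.21 over the 12 arrays) and PGR (3.60 to 3.88) lay below the limit for testing. VIM, encoding the mesenchymal filament vimentin, lay at 13.53 to 13.81 over the same arrays, CD44 at 14.02 to 14.51, and the white cell gene PTPRC at 4.08 to 4.22. VIM and CD44 belong to a list of 10 basal markers of the line. In it MSN was higher (0.33 ± 0.04) and AXL lower (-0.23 ± 0.04), which is 10.0% each, against 12.4% and 11.8% of all genes. Summed over this list, signal was 17.29 to 17.33 with minus2 and 17.29 to 17.34 with the archetype. Summed over 13 white blood cell markers, signal was 14.01 to 14.13 log2 units in minus2 arrays and 13.95 to 14.03 in archetype arrays. In control arrays it was 14.95 to 15.09. Of 10 tested members 2 were higher, LCP1 and LAPTM5 (20.0%, against 12.4% of all genes). None was lower (limma, with 0 at an unadjusted p under 0.05), against 11.8% of all genes. LAPTM5 itself had means of 12.71 with minus2, 12.36 with the archetype and 14.24 in control. Over 13 luminal markers it was 14.87 to 14.90 with minus2 and 14.73 to 14.83 with the archetype, with KRT19 higher and ERBB3 and GATA3 lower, the calls of ERBB3 and GATA3 being lost in 2 and 6 of 16 alternative analyses. Of the 3 fibroblast and 3 endothelial markers tested, 0 were called with either sign (limma, with 0 at an unadjusted p under 0.05). Over all genes 24.3% were called. Signals summed over the 8 fibroblast and 8 endothelial markers on the array, tested or not, overlapped between the mimics. What these markers contribute to the results was not tested.

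The gene with the largest higher level with minus2 was STC1, which encodes stanniocalcin-1, a secreted glycoprotein. Its log2 signal was 12.71, 12.64 and 12.63 in minus2 arrays, against 10.76, 10.69 and 10.68 in archetype arrays and 12.73, 12.68 and 12.74 in control arrays. All minus2 arrays lay with the control arrays and far above the archetype arrays. The difference was 1.95 ± 0.04 (SE) log2 units, or 3.86-fold, with an adjusted p of 6.5e-10. UHMK1, a serine/threonine kinase, had 11.79, 11.82 and 11.76 with minus2, against 9.99, 10.05 and 10.15 with the archetype and 11.34, 11.34 and 11.31 in control. Here minus2 lay above control and the archetype below it. The difference was 1.72 ± 0.06, with an adjusted p of 6.3e-09.

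PCLAF, a factor that binds the replication clamp PCNA, had 10.25, 10.49 and 10.34 with minus2, against 8.70, 8.57 and 8.90 with the archetype and 10.27, 10.20 and 10.15 in control. The difference was 1.64 ± 0.11 (adjusted p = 9.2e-07), and again the minus2 arrays lay near the control arrays. HBEGF, a ligand of the epidermal growth factor receptor, had 11.33, 11.34 and 11.37 with minus2, against 9.94, 9.78 and 9.88 with the archetype and 11.22, 11.21 and 11.15 in control, a difference of 1.48 ± 0.06. EI24, a protein of the endoplasmic reticulum that acts in autophagy, followed another order. It had 12.01, 12.10 and 12.02 with minus2, 10.72, 10.76 and 10.73 with the archetype and 12.90, 12.86 and 12.92 in control, so that both mimics lay below control and the archetype much further.

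The other 10 of the 15 largest higher genes were GINM1, PTP4A2, GNG5, AP3M1 (a subunit of the AP-3 adaptor), PANK3 (a pantothenate kinase of coenzyme A synthesis), ARPP19 (an inhibitor of PP2A in mitosis), GNG5B, GALNT1 (which starts mucin-type O-glycosylation), EMP1 and PLPPR2. Over the 15 genes the difference was 1.24 to 1.95 and the adjusted p at most 6.7e-05. In 15 of 15 all archetype arrays lay below all control arrays, and in 15 of 15 the control mean was nearer to minus2. GNG5 and GNG5B are near-identical copies that the probes may not tell apart.

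Lower with minus2, the largest difference was that of CXCL8, which encodes the neutrophil attractant interleukin-8. Its log2 signal was 7.83, 7.68 and 7.66 in minus2 arrays, against 9.97, 9.98 and 9.98 in archetype arrays and 9.67, 9.65 and 9.67 in control arrays. The minus2 arrays lay far below control while the archetype arrays lay slightly above it. The difference was -2.25 ± 0.06, with an adjusted p of 2.1e-09, and the archetype level was 4.76 times that with minus2. NSA2, a factor of ribosome assembly, had 9.99, 10.10 and 10.23 with minus2, against 12.29, 12.25 and 12.07 with the archetype and 12.42, 12.33 and 12.31 in control, a difference of -2.10 ± 0.07. UCHL3, a ubiquitin hydrolase, had 9.44, 9.48 and 9.34 with minus2, against 11.30, 11.33 and 11.37 with the archetype and 11.71, 11.64 and 11.64 in control, a difference of -1.91 ± 0.05. In both genes the archetype lay close to control and minus2 far below.

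PPME1 differed from these in that its control mean was nearer to minus2. It encodes the methylesterase that removes the methyl group from the catalytic subunit of the phosphatase PP2A. Its signal was 10.00, 10.18 and 10.10 with minus2, against 12.30, 12.17 and 12.05 with the archetype and 10.76, 10.81 and 10.79 in control. The control arrays lay between the mimics, as they did for CXCL8, and the difference was -2.08 ± 0.08 (adjusted p = 2.1e-08). Against control, PPME1 fell with minus2 by 0.69 and rose with the archetype by 1.38, with adjusted p of 6.7e-05 and 3.2e-07.

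The other 11 of the 15 largest lower genes were GDE1, TMEM109, PAQR5 (a membrane progestin receptor), PTP4A1, SLC39A6 (a zinc transporter), LMNB1 (lamin B1 of the nuclear envelope), NCOA4 (the receptor that carries ferritin to lysosomes), GON7, MBNL2, CAP2 (an actin-binding protein) and CST7 (a cysteine protease inhibitor). The differences of the 15 genes lay between -2.25 and -1.37, with adjusted p at most 0.00018. In 15 of 15 all minus2 arrays lay below all control arrays, and in 14 of 15 the control mean was nearer to the archetype, PPME1 being the exception.

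**Figure D2:**
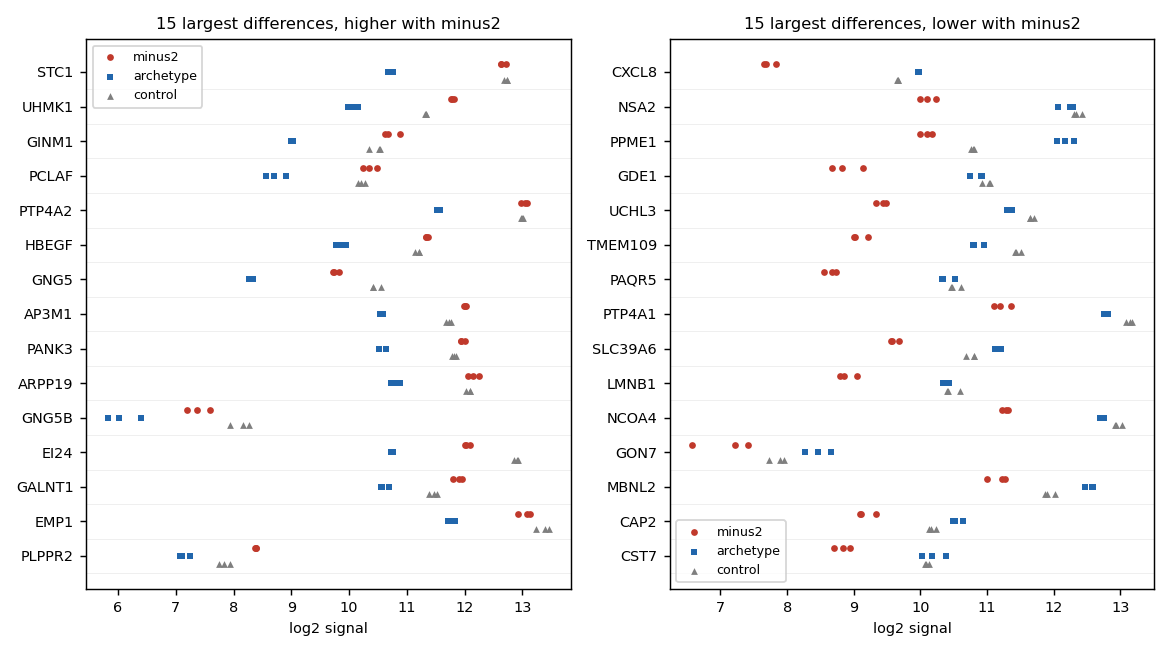
Log2 signal (x axis) of the 15 genes with the largest higher level with minus2 (left) and the 15 with the largest lower level (right), 1 point per array and 3 arrays per group. Red circles are minus2, blue squares archetype and grey triangles control. On the left the archetype arrays lie below control in 15 of 15 genes, and on the right the minus2 arrays lie below control in 15 of 15.

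The same positions were counted over every called gene with a difference of at least 1.5-fold. Among the 178 higher with minus2, all archetype arrays lay below all control arrays in 158, and the control mean was nearer to minus2 in 124. Among the 249 lower with minus2, all minus2 arrays lay below all control arrays in 205, and the control mean was nearer to the archetype in 180. The control arrays lay between the mimics without overlap in 93 of the 178 and in 92 of the 249. These counts describe levels of the same 9 arrays and are not separate tests. The genes were chosen by a difference that sets 1 mimic below the other, which itself favours such positions. The same positions were not counted over all 14940 genes, so the counts have no background to be read against. That holds too for the counts of array positions given for the 15 largest genes and for gene lists.

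Genes reported in earlier work as targets of miR-183-5p were mostly higher with minus2. Of 23 tested, 15 were called higher (65.2%, against 12.4% of all genes tested) and 2 lower, and the median difference was 0.33, against 0.01 over all genes. Like the other lists below, this one was drawn up with earlier results of these data known. Shares above those of all genes thus describe the lists and are not independent support. In the 15 higher genes all archetype arrays lay below all control arrays, in 15 of 15, whereas all minus2 arrays lay below control in 8 of 15. GNG5, a gamma subunit of G proteins, had 9.72, 9.74 and 9.83 with minus2, against 8.34, 8.29 and 8.27 with the archetype and 10.41, 10.56 and 10.42 in control. Both mimics lay below control, the archetype further, with changes against control of -0.70 for minus2 and -2.17 for the archetype.

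PPP2CA, the alpha catalytic subunit of PP2A, had 10.84, 10.89 and 10.88 with minus2, against 10.01, 10.02 and 10.06 with the archetype and 11.03, 10.98 and 10.99 in control, a difference of 0.84 ± 0.04. BNIP3L, a mitophagy receptor, had 13.34, 13.35 and 13.34 with minus2, against 12.50, 12.53 and 12.55 with the archetype and 13.14, 13.08 and 13.08 in control, a difference of 0.82 ± 0.04. Minus2 thus lay just below control in PPP2CA and above it in BNIP3L. TMSB4X, which encodes the actin-sequestering thymosin beta-4, differed by 0.71 ± 0.04. The processed copy TMSB4XP8, chosen after its values were seen, differed by 1.22 ± 0.06, and probes may not tell the copies apart. Over its arrays the copy had means of 16.24 with minus2, 15.02 with the archetype and 16.40 in control.

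Smaller higher levels with minus2 were measured for the tumour suppressor RB1 (0.54 ± 0.06), the insulin receptor substrate IRS1 (0.51 ± 0.09), the mitochondrial isocitrate dehydrogenase IDH2 (0.51 ± 0.05), MTA1 (0.46 ± 0.04), TAOK1 (0.43 ± 0.06), the kinesin KIF2A (0.42 ± 0.05), SMAD4 (0.33 ± 0.06), ZEB1 (0.28 ± 0.04), AKAP12 (0.24 ± 0.08) and ezrin, EZR (0.23 ± 0.06). Adjusted p was at most 0.037 among these. The call of AKAP12 was lost in 5 of 15 alternative analyses and that of EZR in 1 of 16, without archetype replicate 3. ITGB1, the integrin beta-1 subunit, differed by 0.35 ± 0.04 on its strongest cluster, but by 0.10 (adjusted p = 0.26) when its clusters were averaged.

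A pair of reported targets went the other way. EGR1, an immediate-early transcription factor, had 5.68, 5.70 and 5.70 with minus2, against 6.41, 6.35 and 6.36 with the archetype and 6.20, 6.05 and 6.01 in control, a difference of -0.68 ± 0.09. BTRC, the substrate receptor of an SCF ubiquitin ligase, had 8.22, 8.17 and 8.29 with minus2, against 8.91, 8.89 and 8.86 with the archetype and 8.55, 8.52 and 8.52 in control, a difference of -0.66 ± 0.04. In both the archetype arrays all lay above control and the minus2 arrays all below. The 6 members not called were PPP2CB, FOXO1, LRP6, DKK3, SOCS6 and PFN2. LRP6, a Wnt co-receptor, had 9.45, 9.40 and 9.43 with minus2, against 9.48, 9.40 and 9.48 with the archetype and 10.20, 10.21 and 10.17 in control. Its difference was -0.02, with a 95% interval from -0.11 to 0.07, and both mimics lay below control.

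NF-kB is a family of transcription factors that drives inflammatory genes, many of which feed back on it. Of 24 tested genes of NF-kB signalling and inflammatory cytokines, 15 were called lower with minus2 (62.5%, against 11.8% of all genes) and 2 higher, and the median difference was -0.27. In 13 of the 15 lower genes all minus2 arrays lay below all control arrays, and in 8 of 15 all archetype arrays lay above them. Apart from CXCL8, the chemokine genes CXCL1, CXCL2, CXCL3 and CCL20 were lower, and CXCL1, CXCL2 and CXCL3 are close copies that probes may not tell apart.

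ICAM1, an adhesion molecule for white cells, had 10.81, 10.48 and 10.81 with minus2, against 12.01, 11.75 and 12.01 with the archetype and 11.70, 11.46 and 11.70 in control, a difference of -1.22 ± 0.12. IL6, the cytokine interleukin-6, had 6.67, 6.71 and 6.53 with minus2, against 7.58, 7.77 and 7.58 with the archetype and 7.15, 7.28 and 7.21 in control, a difference of -1.01 ± 0.08. TNFAIP3, which encodes the feedback inhibitor A20, had 7.76, 7.63 and 7.82 with minus2, against 8.90, 8.73 and 8.78 with the archetype and 8.25, 8.22 and 8.02 in control, a difference of -1.07 ± 0.09. The 3 genes shared 1 order, with minus2 lowest and the archetype highest, and the minus2 and archetype arrays did not overlap.

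Members of the pathway itself were also lower with minus2, namely the subunit genes NFKB1, NFKB2 and RELB, the inhibitors NFKBIA and NFKBIE, and TRAF1. MYD88, the adaptor of Toll-like and interleukin-1 receptors, is not in the list and was named after its values were seen. It had 7.77, 7.69 and 7.83 with minus2, against 8.88, 8.78 and 8.93 with the archetype and 8.91, 8.75 and 8.67 in control, a difference of -1.10 ± 0.07, so that only minus2 lay apart from control. The 2 higher members were the cytokine gene IL1A and the receptor gene TLR4.

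Promoters of 3 of the lower genes are shown because they hold the NF-kB consensus close to the start of the gene. The 120 bases before the annotated start are given 5′ to 3′ on the strand of the gene, from RefSeq (GRCh38.p14), with matches in capitals. They lie at chr4:73869273-73869392 (plus strand) for CXCL1, chr7:22727080-22727199 (plus strand) for IL6 and chr6:137867139-137867258 (plus strand) for TNFAIP3.
CXCL1: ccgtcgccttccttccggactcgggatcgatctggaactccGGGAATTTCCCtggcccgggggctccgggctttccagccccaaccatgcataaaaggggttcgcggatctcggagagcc
IL6: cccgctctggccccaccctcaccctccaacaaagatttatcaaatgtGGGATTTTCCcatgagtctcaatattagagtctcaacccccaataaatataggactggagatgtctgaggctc
TNFAIP3: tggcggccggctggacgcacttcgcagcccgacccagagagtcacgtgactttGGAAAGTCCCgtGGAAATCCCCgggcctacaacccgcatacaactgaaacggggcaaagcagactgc
Searched on both strands in the 250 bases before the start, the consensus was found in 1380 of 27305 promoters (5.05%) and in 621 of the 10718 tested genes with a promoter in the table (5.79%). It was found in 8 of the 18 tested NF-kB list genes with a promoter (44.4%). By call, these were 8 of 13 lower genes (61.5%), 0 of 2 higher ones and 0 of 3 not called. The 8 were CXCL1, CXCL2, CXCL3, CCL20, IL6, TNFAIP3, NFKB1 and NFKBIA. CXCL8 and ICAM1, the lower members with the largest differences, were not among them, and not every lower gene had a promoter in the table. The list was made of genes of NF-kB signalling, so its share above that of all genes is no separate result. Groups of 2 and 3 genes are too small to compare with the lower ones, and the 8 include the close copies CXCL1, CXCL2 and CXCL3. In CXCL1 the matches on the 2 strands overlap and are 1 stretch. A match describes the letters and is not a measured binding site.

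Genes of the response to low oxygen and of glycolysis were called in 1 direction. Of 31 tested, 17 were higher with minus2 (54.8%, against 12.4%), 0 were lower (limma, with 0 lower at an unadjusted p under 0.05 too), and the median difference was 0.17. In 16 of the 17 all archetype arrays lay below control, and in 9 of 17 all minus2 arrays lay above it. After STC1, the largest was EGLN3, a prolyl hydroxylase that marks hypoxia-inducible factors for decay. It had 7.60, 7.69 and 7.51 with minus2, against 6.66, 6.75 and 6.51 with the archetype and 6.80, 6.83 and 6.96 in control, a difference of 0.96 ± 0.08. Hexokinase 2, HK2, which takes glucose into glycolysis, had 9.49, 9.57 and 9.51 with minus2, against 8.84, 8.87 and 8.79 with the archetype and 9.13, 9.13 and 9.16 in control. VEGFA, the vascular growth factor, had 10.28, 10.25 and 10.20 with minus2, against 9.61, 9.61 and 9.60 with the archetype and 10.42, 10.36 and 10.38 in control. The archetype arrays of HK2 and VEGFA were lowest, and minus2 lay above control in HK2 and just below it in VEGFA. The glycolytic enzyme genes PGK1, ALDOA, GAPDH, GPI, PGAM1 and PKM and the glucose transporter gene SLC2A1 were among the others, with differences under 1.5-fold.

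**Figure D3:**
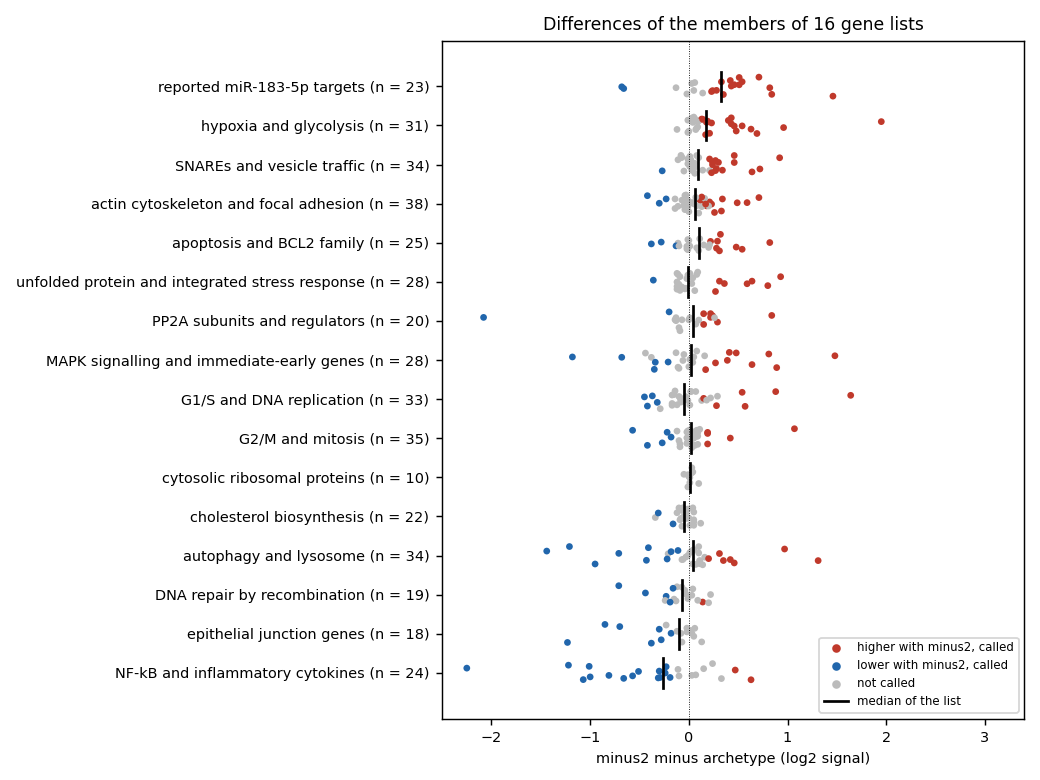
Difference between minus2 and archetype (x axis, log2 signal, minus2 minus archetype) for every tested member of 16 gene lists, 1 point per gene. Red points are members called higher with minus2, blue points members called lower and grey points members not called, and black bars are list medians. The reported miR-183-5p targets have the highest median of the lists drawn (0.33) and the NF-kB list the lowest (-0.27).

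Epithelial junction genes were lower with minus2 where they differed. Of 18 tested, 7 were called lower (38.9%, against 11.8% of all genes) and 0 higher (against 12.4% of all genes; limma, with 0 higher at an unadjusted p under 0.05 too). CLDN1, a claudin of tight junctions, had 6.84, 6.79 and 6.75 with minus2, against 8.01, 8.03 and 8.04 with the archetype and 6.01, 6.03 and 5.85 in control, a difference of -1.23 ± 0.09. Both mimics lay above control, the archetype further. The desmosomal cadherin DSG2 had 12.45, 12.31 and 12.36 with minus2, against 13.26, 13.17 and 13.25 with the archetype and 13.21, 13.15 and 13.10 in control, so here minus2 lay apart from control. TJP1, the scaffold ZO-1, had 11.55, 11.49 and 11.54 with minus2, against 12.25, 12.18 and 12.24 with the archetype and 11.62, 11.63 and 11.54 in control, so here the archetype lay apart. E-cadherin, CDH1, differed by -0.38 ± 0.08 at a signal near the limit for testing (means 4.96 with minus2 and 5.34 with the archetype). The polarity gene PALS1 (-1.13 ± 0.05) and the nectin gene NECTIN2 (-1.13 ± 0.07), named after their values were seen, were also lower.

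Of 15 mesenchymal genes, 4 were higher (26.7%, against 12.4% of all genes) and 1 lower (6.67%, against 11.8%). The higher ones were TNC (0.72 ± 0.04), LOX (0.61 ± 0.08), ZEB1 and MMP1 (0.27 ± 0.07), and AXL was lower (-0.23 ± 0.04). The call of MMP1 was lost without minus2 replicate 2, archetype replicate 2 or archetype replicate 3, and the count of lower members was 1 or 2 over the alternatives, 2 in 8 of 16, among them the analysis without archetype replicate 2. Among 10 integrin subunits, 2 were higher and 2 lower (20.0% each, against 12.4% and 11.8% of all genes). ITGA6 was higher (0.39 ± 0.04), as was ITGB1, whose call was lost when its clusters were averaged. ITGB4 (-0.46 ± 0.06) and ITGB3 (-0.42 ± 0.10) were lower.

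In TGF-beta signalling, a pathway of growth arrest and matrix production, 3 of 29 genes were higher with minus2 (10.3%, against 12.4% of all genes) and 6 lower (20.7%, against 11.8%), and the higher ones numbered 3 to 6 over the 16 alternatives. The type II receptor gene TGFBR2 had 10.33, 10.38 and 10.38 with minus2, against 11.25, 11.21 and 11.29 with the archetype and 11.56, 11.50 and 11.50 in control, a difference of -0.89 ± 0.04. The ligand gene TGFB2 had 11.95, 11.94 and 11.98 with minus2, against 12.80, 12.80 and 12.66 with the archetype and 11.03, 11.09 and 10.95 in control, a difference of -0.80 ± 0.05. Thus both mimics lay below control for the receptor and above it for the ligand. CCN2, a matricellular protein, was higher with minus2 (0.82 ± 0.11), whereas its relative CCN1 was lower (-0.56 ± 0.07). Of 21 YAP and TAZ targets, 3 were higher (14.3%) and 6 lower (28.6%), with ANKRD1 lowest at -0.85 ± 0.10. The lower members numbered 3 to 9 over the 16 alternatives, and 3 without minus2 replicate 3, archetype replicate 1 or archetype replicate 2.

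Of 28 genes of growth factor signalling through MAP kinases, 9 were higher with minus2 (32.1%, against 12.4% of all genes) and 5 lower (17.9%, against 11.8%). EGFR, the epidermal growth factor receptor, had 10.89, 10.88 and 10.97 with minus2, against 12.15, 12.09 and 12.05 with the archetype and 11.54, 11.56 and 11.46 in control, a difference of -1.18 ± 0.05. The control arrays lay midway, without overlap with either mimic. Among the higher members of the list were 3 genes that encode ligands of this receptor, HBEGF, EREG and TGFA. TGFA had 9.21, 9.23 and 9.23 with minus2, against 8.43, 8.32 and 8.49 with the archetype, a difference of 0.81 ± 0.05. The feedback inhibitor SPRY4 was higher by 0.89 ± 0.09.

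Among 35 cell cycle genes of G2 and mitosis, 5 were higher and 5 lower (14.3% each, against 12.4% and 11.8% of all genes), and the median difference was 0.02. Among 33 of G1/S and replication, 6 were higher (18.2%) and 4 lower (12.1%), with a median of -0.05, and the lower ones numbered 4 to 10 over the 16 alternatives, 8 without the plus2 arrays and 10 with array weights. The mitotic kinase gene PLK1 had 12.29, 12.40 and 12.41 with minus2, against 11.25, 11.26 and 11.37 with the archetype and 12.63, 12.46 and 12.51 in control, a difference of 1.07 ± 0.07. ECT2, a cytokinesis exchange factor, was higher by 0.42 ± 0.05, and the kinesin gene KIF23 lower, at -0.57 ± 0.08. Cyclin D1, CCND1, had 13.71, 13.85 and 13.71 with minus2, against 12.88, 12.91 and 12.83 with the archetype and 13.36, 13.42 and 13.33 in control, with control between the mimics. The number of higher G2 and mitosis members was 3 to 6 over the alternatives, and 3 without minus2 replicate 2, minus2 replicate 3, archetype replicate 1 or archetype replicate 2. Of 19 genes of repair by recombination, 5 were lower (26.3%) and 1 higher (5.26%), with BRCA1 at -0.71 ± 0.07. Over the alternatives the lower ones numbered 3 to 8, with 3 without minus2 replicate 1, and the higher ones 0 to 2, with 0 without minus2 replicate 1, minus2 replicate 3 or archetype replicate 3.

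PP2A, a phosphatase made of a scaffold, a catalytic and a regulatory subunit, had 7 of 20 subunit and regulator genes higher with minus2 (35.0%, against 12.4% of all genes) and 2 lower (10.0%, against 11.8%). The scaffold gene PPP2R1B had 11.82, 11.89 and 11.82 with minus2, against 11.57, 11.55 and 11.55 with the archetype and 10.47, 10.55 and 10.52 in control, so both mimics lay above control. Leaving out minus2 replicate 1 or archetype replicate 3 left 4 higher members, and the higher ones numbered 4 to 8 over the alternatives. The lower members numbered 1 to 4, with 4 without the plus2 arrays or after a further quantile normalisation and 1 without minus2 replicate 1, minus2 replicate 2, archetype replicate 1 or archetype replicate 3. PPME1 was called in all 16 alternatives.

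In some gene families close relatives differed in opposite directions. Of 39 tested members of the families examined, 15 were higher with minus2 (38.5%, against 12.4% of all genes) and 7 lower (17.9%, against 11.8%). The list was drawn up with earlier results known. Among the PRL phosphatases, PTP4A1 had 11.10, 11.36 and 11.20 with minus2, against 12.76, 12.81 and 12.77 with the archetype and 13.15, 13.09 and 13.18 in control. PTP4A2 had 13.09, 13.05 and 12.98 with minus2, against 11.56, 11.52 and 11.57 with the archetype and 12.98, 13.01 and 13.00 in control. The differences were thus -1.56 ± 0.07 and 1.49 ± 0.04, while PTP4A3 was not called (-0.10 ± 0.08). Each mimic lowered a different member of the family most, since PTP4A1 changed against control by -1.92 with minus2 and -0.36 with the archetype, and PTP4A2 by 0.04 and -1.45.

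The muscleblind splicing factors were split in the same way. MBNL1 had 12.05, 12.07 and 12.08 with minus2, against 10.99, 11.02 and 10.99 with the archetype and 12.09, 12.07 and 11.99 in control, a difference of 1.06 ± 0.06. MBNL2 averaged 11.17 ± 0.14 with minus2 (SD, n = 3), against 12.55 ± 0.07 with the archetype and 11.93 ± 0.08 in control, and no minus2 array reached the lowest control array. Its difference was -1.38 ± 0.10 (SE). MBNL3, near the lower end of the tested signals, was lower too (-0.51 ± 0.07).

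In other families some members differed and others were not called. The catalytic PP2A gene PPP2CB had 8.46, 8.44 and 8.52 with minus2, against 8.60, 8.54 and 8.65 with the archetype and 9.19, 9.23 and 9.19 in control, a difference of -0.13 ± 0.04 (adjusted p = 0.06, 95% interval -0.22 to -0.03), beside 0.84 for PPP2CA. Its arrays did not overlap between the mimics, and it passed the threshold in 4 of 16 alternatives. PANK1 (-0.02 ± 0.05) and PANK2 (-0.09 ± 0.06) were not called beside PANK3 (1.41 ± 0.05), nor was STC2 (0.07 ± 0.05, at a signal at the limit for testing) beside STC1. SMAD2 was not called (-0.10 ± 0.04, adjusted p = 0.15) and SMAD3 was lower (-0.51 ± 0.06). In the EMP family, EMP1 was higher (1.27 ± 0.08), EMP3 lower (-0.43 ± 0.06) and EMP2 not called (-0.04 ± 0.06). In the calcium pumps, ATP2B4 was higher (0.47 ± 0.09) and ATP2B1 lower (-0.42 ± 0.05). Whether these members differ from each other in their response was not tested beyond the values given.

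**Figure D4:**
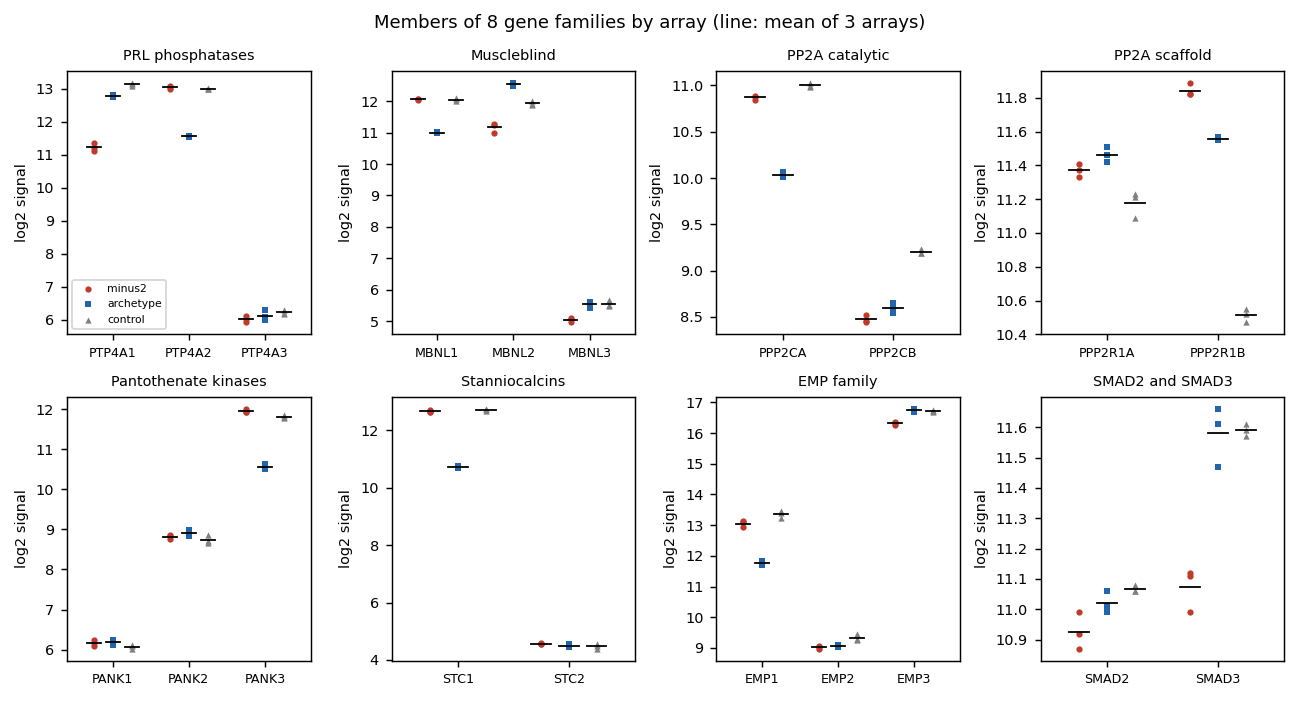
Log2 signal (y axis, own scale in each panel, not starting at 0) of members of 8 gene families, 1 point per array, with black lines at the means of 3 arrays. Red circles are minus2, blue squares archetype and grey triangles control, and signals are to be compared between groups within a gene, not between genes. PTP4A1 and MBNL2 are lower with minus2 than with the archetype, and PTP4A2 and MBNL1 are higher.

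In vesicle traffic, 14 of 34 genes were higher with minus2 (41.2%, against 12.4% of all genes) and 1 lower (2.94%, against 11.8%). TRAM1, a protein of the translocon in the endoplasmic reticulum, had 12.14, 12.14 and 12.16 with minus2, against 11.28, 11.20 and 11.21 with the archetype and 12.67, 12.74 and 12.74 in control, a difference of 0.92 ± 0.05. VAMP3, a SNARE of recycling endosomes, differed by 0.72 ± 0.05, the coat gene SEC24D by 0.64 ± 0.06 and the signal recognition particle receptor gene SRPRA by 0.46 ± 0.04. Of 28 genes of the unfolded protein and integrated stress responses, 7 were higher (25%) and 1 lower (3.57%), or 2 lower without the plus2 arrays or with array weights. EDEM1, which delivers misfolded glycoproteins for degradation, differed by 0.93 ± 0.06, and ERN1, the sensor kinase IRE1, by 0.80 ± 0.08, whereas the median of that list was -0.01.

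Autophagy and lysosome genes were split, with 7 of 34 higher (20.6%, against 12.4% of all genes) and 9 lower (26.5%, against 11.8%). NCOA4 had 11.32, 11.22 and 11.29 with minus2, against 12.76, 12.69 and 12.69 with the archetype and 13.02, 12.92 and 12.94 in control, a difference of -1.44 ± 0.05. HPS3, a subunit of a complex that builds lysosome-related organelles, differed by -1.21 ± 0.07, and the lysosomal membrane gene LAPTM4A by 0.97 ± 0.05 the other way. Of 38 actin and focal adhesion genes, 13 were higher (34.2%), with the cofilin gene CFL2 at 0.59 ± 0.05, and 3 lower (7.89%), or 3 to 5 over the alternatives, with the myosin light chain gene MYL12A at -0.42 ± 0.08. The higher count there was 8 without minus2 replicate 1, minus2 replicate 3 or archetype replicate 2 and 7 without archetype replicate 3.

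Among the remaining lists, 8 of 25 apoptosis genes were higher (32.0%, against 12.4% of all genes) and 3 lower (12%, against 11.8%). Of 25 genes of oxidative phosphorylation and the citrate cycle, 8 were higher (32.0%) and 2 lower (8.0%). In the Wnt list 5 of 27 were higher (18.5%) and 7 lower (25.9%), the lower ones reaching 11 with array weights. In the interferon list 6 of 31 were higher (19.4%) and 5 lower (16.1%), with 2 or 3 higher without minus2 replicate 1, minus2 replicate 3 or archetype replicate 2. For p53 targets 5 of 20 were higher (25%) and 4 lower (20.0%). The p53 target GADD45A, a stress-induced growth arrest gene, had 10.11, 10.02 and 10.26 with minus2, against 10.95, 10.89 and 10.91 with the archetype and 9.94, 9.87 and 9.91 in control. Without minus2 replicate 1 or 3 the higher p53 targets numbered 3, and without archetype replicate 2 or 3 they numbered 2. In the PI3K list 6 of 24 were higher (25%), or 3 without archetype replicate 3, and 2 lower (8.33%), or 0 or 1 when any of the 6 arrays was left out. For extracellular matrix 3 of 19 were higher (15.8%) and 5 lower (26.3%), the lower ones numbering 3 without minus2 replicate 2 or 3 or archetype replicate 1 or 3. The microRNA pathway had DICER1 (0.40 ± 0.05) and TNRC6C (0.30 ± 0.06) higher among 9 (22.2%, against 12.4% of all genes). In it 0 were lower (limma, with 0 at an unadjusted p under 0.05), against 11.8% of all genes. In cholesterol synthesis 2 of 22 were lower (9.09%), or 1 when any of the 6 arrays was left out, and 0 were higher (limma, with 1 at an unadjusted p under 0.05), or 1 in 4 of 16 alternatives. Of 10 cytosolic ribosomal protein genes 0 were called with either sign (limma, with 0 at an unadjusted p under 0.05), with differences from -0.05 to 0.10, whereas the elongation factor gene EEF2, named after its values were seen, had 15.86, 15.85 and 15.89 with minus2, against 14.82, 14.85 and 14.85 with the archetype and 15.72, 15.66 and 15.61 in control.

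Some genes responded to both mimics with little difference between them. Against the shared control arrays, 21 genes changed at least 2-fold the same way with both mimics, 11 of them upward and 10 downward. Between minus2 and archetype, 9 of the 21 differed past the threshold, against 24.3% of all genes tested, and 12 did not. For 12 of those 12 the 95% interval of the difference lay within 1.5-fold in either direction. The same held for 92.6% of all genes tested, so it does not mark these genes out. CPA4, a carboxypeptidase, had 11.09, 10.77 and 11.09 with minus2, against 11.03, 10.77 and 11.15 with the archetype and 9.33, 9.02 and 9.33 in control. The mimics overlapped fully, and the interval of the difference ran from -0.38 to 0.38. The desmosomal gene PKP2 had 10.74, 10.58 and 10.71 with minus2, against 10.71, 10.56 and 10.68 with the archetype and 9.46, 9.28 and 9.40 in control, a difference of 0.02 ± 0.07.

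The circadian repressor gene CRY1 had 10.07, 10.15 and 10.18 with minus2, against 10.30, 10.27 and 10.47 with the archetype and 8.85, 8.75 and 8.86 in control, a difference of -0.21 ± 0.08 (adjusted p = 0.066). It passed the threshold in 5 of 16 alternatives, and ID1 (0.26 ± 0.11) in 3 of 16. Of the 9 that differed, 6 changed further with the archetype and 3 with minus2. DKK1, a secreted Wnt antagonist, had 11.94, 12.04 and 11.86 with minus2, against 13.05, 12.98 and 12.81 with the archetype and 10.29, 10.47 and 10.39 in control, a difference of -1.0 ± 0.08. ITGB1, on its strongest cluster, had 14.10, 14.12 and 14.11 with minus2, against 13.72, 13.78 and 13.76 with the archetype and 15.74, 15.68 and 15.69 in control. Its difference between the mimics was not called when its clusters were averaged. LOX, a collagen crosslinking enzyme, had 9.71, 9.67 and 9.60 with minus2, against 8.99, 9.24 and 8.92 with the archetype and 10.61, 10.70 and 10.76 in control, whereas CPNE3 differed by -0.37 ± 0.05 and changed further with minus2.

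**Figure D5:**
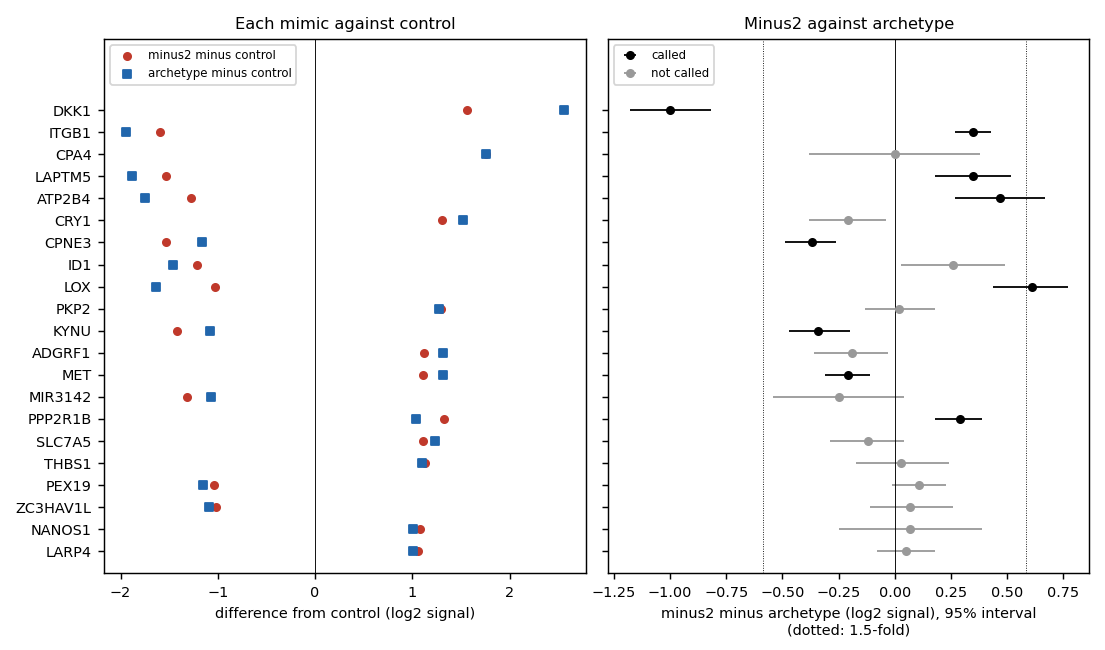
The 21 genes changed at least 2-fold the same way by both mimics against control. On the left, red circles are minus2 minus control and blue squares archetype minus control (x axis, log2 signal); on the right, points are minus2 minus archetype with 95% confidence intervals, black where called and grey where not, and dotted lines mark 1.5-fold. The intervals of the 12 genes not called lie within the dotted lines.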

How the data were processed

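The deposited table holds log2 signals by array, which the authors made with Affymetrix Expression Console 1.4.1 and RMA, per the submitters' processing notes, without settings or order. The log2 scale was read from the values (1.79 to 19.93, array medians 4.73 to 4.80). Of 67528 transcript clusters, 23781 carried 1 symbol, giving 22411 genes after 306 symbols were updated through RefSeq (GRCh38.p14), and 528 genes had more than 1 cluster. Group means were fitted over all 12 arrays (8 residual degrees of freedom) by the lmFit and eBayes functions of limma 3.58.1 (R 4.3.3), with Benjamini-Hochberg adjustment over 14940 genes. Exact permutation of 3 against 3 arrays gives no p under 0.1, so it was not used. Signals carry no count of molecules, so 3 arrays a group limit the precision. The fits were tested on simulated data.

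Members and lists were chosen with earlier results of these data known. Named by rule were the 15 largest called differences in each direction whose arrays did not overlap. So were up to 4 called members of each of 33 lists and 10 genes changed by both mimics. Eligible members of the families and reported targets were named too. Further called list members, such as CXCL1, NFKB1, PGK1 and EREG, were named beyond the rule. Genes named after their values were seen are marked. The 16 alternatives changed the arrays fitted, scaling, filter, cluster choice, variance model or block, or left out 1 array. The count of seed matches in transcripts that was planned was not run, since transcript sequence was not used here.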

Additional observations from a re-analysis of the deposited data

How the results depend on the processing

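The 6 counts of calls over all genes stayed within 1.5 times the reported count in all 96 values from 16 alternatives, whereas 26 of the 66 counts within gene lists moved by more in at least 1 alternative, most of them counts of few genes. Among those of over 5 genes, the lowest or highest were 7 for actin genes higher (13 reported), 3 for YAP and TAZ targets lower (6), 11 for Wnt genes lower (7), 2 for interferon genes higher (6), 4 for PP2A genes higher (7) and 3 for PI3K genes higher (6). The counts of reported targets, NF-kB, hypoxia and epithelial junction genes did not move that far in any of the 16. The 3629 calls numbered 2809 to 2995 when 1 array was left out (47.7% to 56.0% of them higher with minus2), and 3134 to 4644 otherwise, from the test of all 22411 genes without a filter to array weights. Centring the arrays gave 3813 calls, 49.5% of them higher, of which 3521 were called before. Of 148 called genes followed by name, 136 were called in all alternatives run for them. The other 12 were AKAP12, ARRDC3, ERBB3, EZR, GATA3, GDF15, ITGB1, LOXL2, MMP1, PALB2, PIK3R1 and TM7SF2, with 1 to 7 alternatives losing the call, and 7 of 28 not called gained one. No difference of a gene so followed changed sign past the threshold. The further list members named beyond the rule, and TMSB4XP8, were not followed in this way. Same-numbered minus2 and archetype arrays deviated together with r = 0.146, 0.269 and -0.008. Over all groups, same-numbered pairs of replicates 1 and 2 all had positive r (0.034 to 0.269), and pairs of replicate 3 were mixed (-0.045 to 0.133). Not every array correlated best with its own number. In ICAM1 and CPA4, for instance, replicate 2 was lowest in minus2, archetype and control. The main fit did not model the number, so its SEs and intervals may hold a part shared by number, whose source was not tested. With the replicate block there were 3850 calls, 3501 of them shared. Calls of differences near 0.2 are the least certain at 3 arrays a group, and differences between near-identical copies cannot be assigned. The cause of these shifts was not tested.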

Other observations

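A pair of signalling and transport genes outside the lists, chosen after their values were seen, were among the larger differences. GNAQ, the alpha subunit of the Gq protein that activates phospholipase C, had 8.48, 8.52 and 8.60 with minus2, against 9.87, 9.82 and 9.82 with the archetype and 9.93, 9.92 and 9.94 in control. The minus2 arrays lay apart from both other groups, and the difference was -1.31 ± 0.05 (SE, adjusted p = 8.4e-09 by limma). KIF3B, a motor subunit of kinesin-2, had 10.24, 10.18 and 10.17 with minus2, against 11.41, 11.45 and 11.43 with the archetype and 11.25, 11.27 and 11.19 in control, a difference of -1.23 ± 0.05. Here the archetype arrays lay slightly above control and the minus2 arrays far below it. Their differences kept their call in 16 of 16 alternatives.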
